A study of Homo sapiens with 9 samples.

Results

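The genes described here encode the cytoplasmic proteins that tie integrins to the actin cytoskeleton at focal adhesions. The list holds 34 genes for scaffold proteins, kinases, docking proteins and actin linkers, leaves out the integrins, and was written without a rule on measured values. A gene's values are those of the probe set, among those assigned to 1 gene symbol, that had the highest mean log2(signal + 1) over all arrays. Such a probe set was present for 31 of the 34 genes, out of 19775 genes in the whole data set. CRK, FLNA and FLNC had none and were not analysed here. PTK2B was too dim to test, since its signal of 6.04 to 20.7 was above the array median on 0 of 9 arrays. The other 30 genes were among the 12587 tested.

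RNA came from U87 cells, an established human glioma line, 72 h after transfection of 50 nM miRNA duplex with the lipid reagent Lipofectamine RNAiMAX. The groups were miR-376a*A, miR-376a*G and miR-control, called control below, with 3 Affymetrix arrays each, and they differed in the labels by the duplex alone. A and G stand for the unedited and the edited form of the microRNA, in which RNA editing turns an adenosine into an inosine that is read as guanosine. The labels call the replicates biological without naming cultures or days, so the p-values measure the spread between these arrays, some of which may be technical. All cells come from 1 line, and in RNA from whole cultures fewer cells of a type and less RNA per cell cannot be told apart.

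At a focal adhesion, talin binds the tail of an integrin and pulls it into its active shape with the help of kindlin. Vinculin then fastens talin to actin filaments, and a second link runs through the complex of integrin-linked kinase, PINCH and parvin. Focal adhesion kinase and SRC add phosphates to docking proteins such as paxillin and p130Cas, while zyxin, Ena/VASP proteins and alpha-actinin shape the actin bundles that end there. In glioma cells these contacts carry spreading and migration on the matrix.

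The transfected strand has a genomic counterpart, shown here because it defines the treatment. RefSeq lists it as hsa-miR-376a-5p of MIR376A1, at chr14:101040788-101040809 on the plus strand of GRCh38.p14. It is 22 bases long, and capitals mark its seed, bases 2 to 8, the stretch through which a microRNA mainly recognises its targets. This is the unedited sequence, and the duplexes' own sequences are not given in the labels.
hsa-miR-376a-5p: gUAGAUUCuccuucuaugagua

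Array medians lay between 18.01 and 24.6, and the mean after trimming the extremes was 99.99 on every array, so the arrays had been scaled and every value is relative to the rest of its array. In earlier results of these data, the arrays labelled replicate 1 of miR-376a*A and of control stood apart from their groups. The same was seen over the 30 tested genes of the list, each centred on its own mean. For replicate 1 of miR-376a*A, Pearson's r was 0.682 to 0.947 against the other control arrays and -0.242 to 0.156 against its own group. For replicate 1 of control, r was 0.546 to 0.822 against the other miR-376a*A arrays and -0.159 to -0.119 against its own group, while pairs of miR-376a*G arrays gave 0.760 to 0.831. Whether the labels of these 2 arrays had been exchanged was not tested, and every value of miR-376a*A against control with all arrays takes the labels as given. Results are therefore given with all 9 arrays as labelled and again without these 2 arrays. The p-values of the second kind are not independent of that choice. The log2 ratio of 3′ to 5′ GAPDH probe sets, a sign of RNA quality, lay between -0.19 and -0.08 on all arrays. Of 6 glioma line markers 4 were bright enough to test (VIM, NES, CD44 and SOX2), GFAP and S100B were not, and their summed signal was 3786 to 4128 on the miR-376a*G arrays and 3797 to 4409 on the control arrays. Of the markers of other cell types, 4 of 6 neuronal, 2 of 6 endothelial, 1 of 5 leukocyte and 1 of 6 epithelial genes were tested. Summed signals on the miR-376a*G and control arrays were 2172 to 2377 and 1890 to 3326 for neuronal markers, 168 to 245 and 84.6 to 207 for endothelial markers, 47.9 to 58.3 and 24.7 to 42.7 for leukocyte markers and 82.5 to 101 and 55.1 to 69.0 for epithelial markers. SYT1 (neuronal) was lower with miR-376a*G than with control and TUBB3 (neuronal) and KDR (endothelial) higher, by -1.12, 0.32 and 1.23. PTPRC, EPCAM, CDH5 and VWF were below the level needed for a test, and the part of the tested markers in the results below was not tested.

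The edited form was set against control to see what it changes. Of the 30 tested genes, 11 were lower on the miR-376a*G arrays and 0 were higher, by 1.32-fold for CRKL to 4.27-fold for TNS1. They were VCL, TLN2 and FERMT2 of the integrin-binding layer, BCAR1, CRKL and CAV1 among the docking and adaptor proteins, TNS1 and TNS3 among the tensins, LPP and ENAH of the zyxin and Ena/VASP families, and PDLIM5 of the PDZ-LIM proteins. A gene was called when its limma adjusted p, over all 12587 genes, was under 0.05, and differences are log2(signal + 1) of the first group minus the second with the model's standard error (SE). Over all tested genes 15.4% were called lower and 18% higher, 33.4% in all, against 11 of 30 genes here (36.7%). The median difference was -0.23 over the 30 genes and 0.12 over all tested genes, and 18 of the 30 were below 0. Without the 2 arrays that stood apart, all 11 were called again in the same direction, GIT2 was added to the lower ones, and ACTN1 and EVL were called higher (14 of 30). Over all genes 25% were then called lower and 31.2% higher, 56.1% in all.

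The arrays of the 2 groups did not overlap for 16 of the 30 genes, 14 with miR-376a*G below control and 2 above. Among all tested genes the arrays did not overlap for 53.4%, with 22.3% below and 31.1% above. In total the share without overlap was thus close to that of all genes. Without the 2 arrays 19 genes had no overlap, 15 below and 4 above, against 30.9% below and 42.6% above (73.5%) over all genes. Scaling the arrays to the hybridisation controls instead moved the median of all tested genes from 0.12 to 0.51 and that of the list from -0.23 to 0.17. Of the 11 genes 7 were then still called lower, and EVL and ILK were called higher. Over all tested genes 7.52% were called lower and 44.4% higher under that scaling. Centring each array on its median moved the median of all genes to -0.12, gave 1068 higher and 2596 lower calls over all genes in place of 2268 and 1937, and called 14 genes of the list lower.

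**Figure D1:**
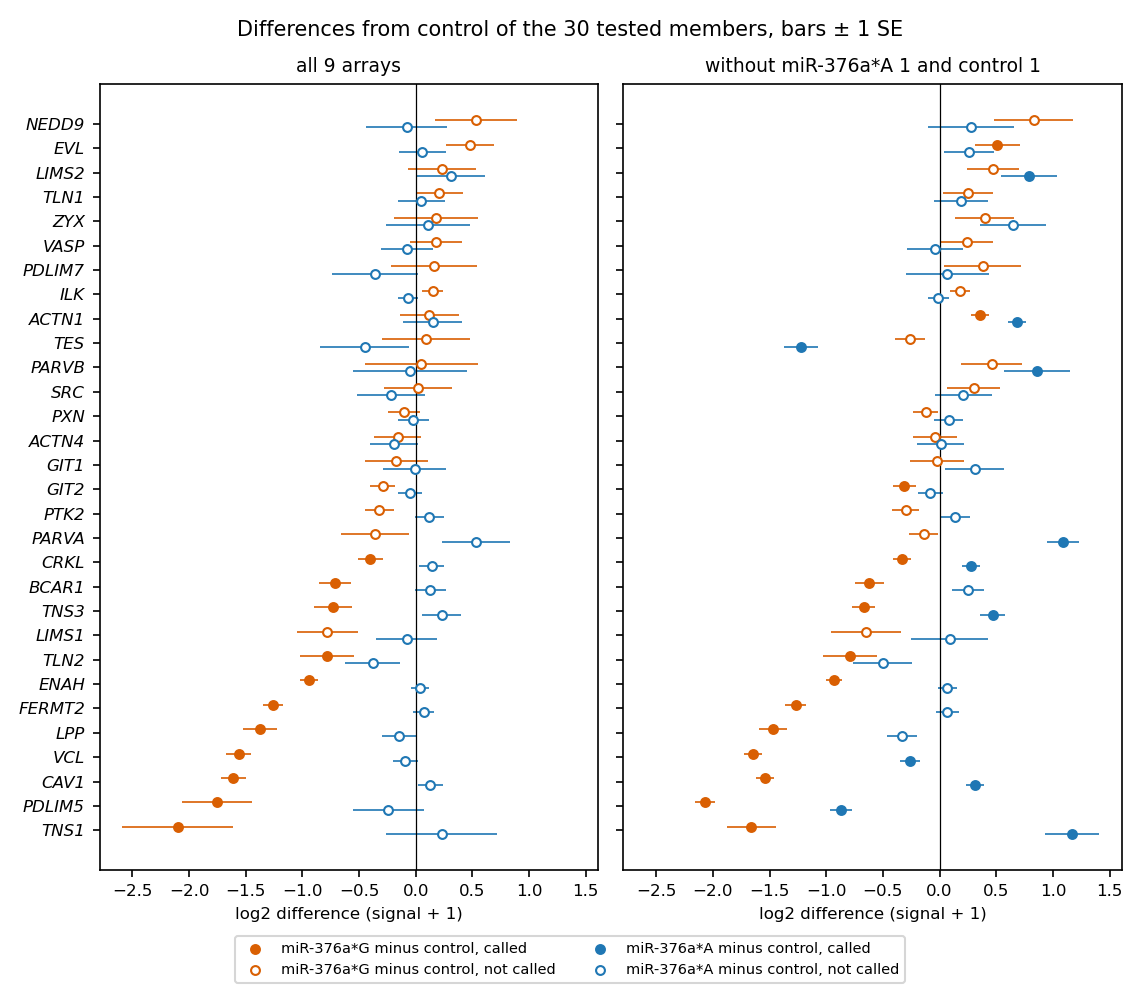
Log2 differences from control of the 30 tested genes, for miR-376a*G (orange) and miR-376a*A (blue), with all 9 arrays on the left and without the arrays labelled replicate 1 of miR-376a*A and of control on the right. Filled points passed limma's adjusted p under 0.05, and bars show 1 SE to either side. For miR-376a*G, TNS1, PDLIM5, CAV1, VCL, LPP and FERMT2 lay at -1.26 or lower with all arrays, and no filled blue point is present on the left, against 11 on the right.

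Of the integrin-binding layer, 3 of 4 genes were lower with miR-376a*G, against 15.4% of all tested genes. VCL encodes vinculin, which bolts talin to actin. Its signal was 527, 503 and 533 on the miR-376a*G arrays, 1346, 1554 and 1731 on the control arrays and 1600, 1328 and 1408 on the miR-376a*A arrays. Every miR-376a*G array lay far below every other array. VCL differed by -1.56 between miR-376a*G and control (SE 0.11, limma adjusted p = 2.4e-05), a 2.94-fold fall, and by -1.65 (adjusted p = 7.4e-08) without the 2 arrays.

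FERMT2, which encodes kindlin-2, the partner of talin in integrin activation, had signals of 302, 293 and 287 with miR-376a*G, 694, 698 and 720 with control and 735, 681 and 808 with miR-376a*A. The miR-376a*G arrays were tight and far below the other 6, whose groups overlapped with each other. The difference from control was -1.26 (SE 0.09, adjusted p = 3.0e-05), or 2.39-fold, and -1.27 without those arrays. All 3 tested probe sets of FERMT2 were called lower.

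The talin genes are paralogs, TLN1 being the widely expressed form. TLN1 gave 46.4, 41.2 and 60.8 with miR-376a*G and 45.0, 49.7 and 33.4 with control, which overlap, and differed by 0.21 (SE 0.21, adjusted p = 0.486). TLN2 gave 28.1, 48.0 and 47.1 with miR-376a*G, 68.3, 66.6 and 72.9 with control and 61.7, 57.5 and 41.6 with miR-376a*A. For TLN2 all 3 miR-376a*G arrays were below all 3 control arrays, with replicate 1 lowest. It differed by -0.78 (SE 0.24, adjusted p = 0.0320), a call that was lost without miR-376a*G replicate 1 (-0.53, adjusted p = 0.0973) and without any 1 of the control arrays (adjusted p = 0.0534 to 0.0902), under scaling to the hybridisation controls (-0.38, adjusted p = 0.207) and without the filter on dim genes (adjusted p = 0.0520). The difference between the paralogs was not tested.

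**Figure D2:**
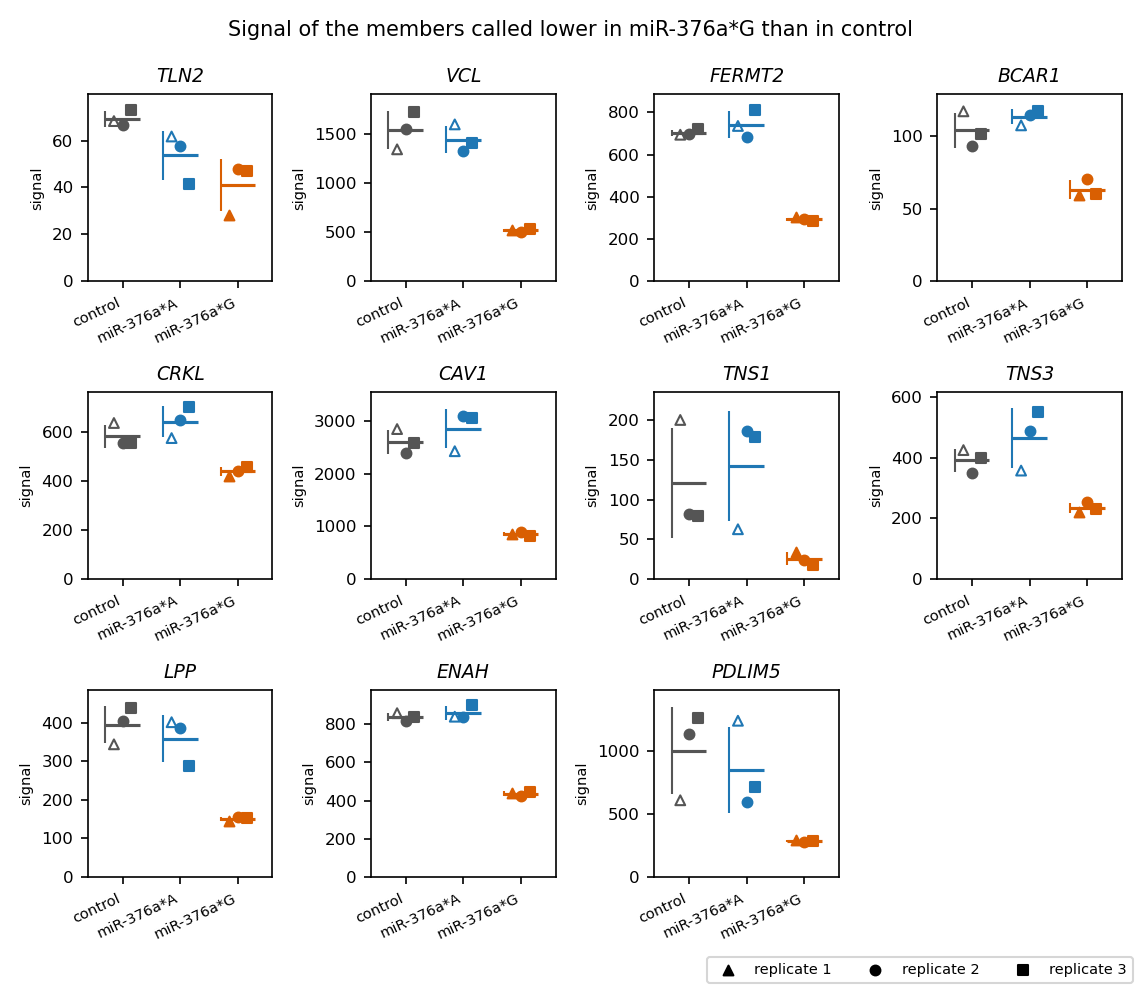
Signal on each array (linear scale from 0) of the 11 genes called lower with miR-376a*G than with control. Symbols mark replicates 1, 2 and 3, horizontal lines the group mean, vertical lines 1 SD to either side, and open symbols the arrays labelled replicate 1 of control and of miR-376a*A. In all 11 panels the 3 miR-376a*G arrays lie below the 3 control arrays, for example at 810 to 888 against 2396 to 2853 for CAV1.

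In the complex of integrin-linked kinase (ILK), PINCH (LIMS1 and LIMS2) and parvin (PARVA and PARVB), which forms the second bridge to actin, 0 of 5 genes passed between miR-376a*G and control. ILK, the scaffold of the complex, gave 951, 1002 and 1066 with miR-376a*G and 949, 950 and 826 with control. Its miR-376a*G arrays were all above the control arrays, though replicate 1 only just. The difference was 0.15 (SE 0.09, adjusted p = 0.228), or 0.55 (adjusted p = 0.0043) when arrays were scaled to the hybridisation controls.

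LIMS1 encodes PINCH-1, which binds ILK. Its signals of 10.1, 14.1 and 19.1 with miR-376a*G were below those of 30.1, 20.5 and 24.7 with control, at a difference of -0.78 (SE 0.27, adjusted p = 0.0551), just outside the threshold. All miR-376a*G signals of LIMS1 were below the medians of their arrays (24.6, 21.7 and 23.6), so the size of the difference is uncertain. LIMS1 entered the test only through 5 arrays of the other groups, on which it was above the median. LIMS2, its paralog, gave 34.2, 22.5 and 32.6 against 35.1, 21.8 and 20, which overlap, with a difference of 0.23 (adjusted p = 0.596). Both are dim, and the pseudocount shrinks such differences.

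PARVA encodes alpha-parvin, which joins ILK to actin filaments. With miR-376a*G it gave 107, 102 and 124, with control 194, 115 and 129, and with miR-376a*A 128, 238 and 285. The array labelled replicate 1 of control was the high one of its group and the array labelled replicate 1 of miR-376a*A the low one of its own. PARVA differed by -0.36 between miR-376a*G and control (SE 0.30, adjusted p = 0.382) and by -0.14 without those arrays.

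PARVB encodes beta-parvin. Its signals were 123, 144 and 180 with miR-376a*G, 251, 157 and 72.8 with control and 68.7, 216 and 176 with miR-376a*A. The control arrays were spread widely and overlapped with both other groups, and the difference of miR-376a*G from control was 0.05 (SE 0.50, adjusted p = 0.947).

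Of the kinases, 0 of 2 tested passed between miR-376a*G and control. PTK2 encodes focal adhesion kinase, the kinase that integrin clustering switches on. Its signal was 483, 474 and 495 with miR-376a*G, 625, 600 and 588 with control and 656, 550 and 779 with miR-376a*A. The miR-376a*G arrays were the lowest 3 of the 9. PTK2 differed from control by -0.32 (SE 0.13, adjusted p = 0.0794), and by 0.08 under scaling to the hybridisation controls. All 3 tested PTK2 probe sets were below 0 (-0.38 to -0.32), and 1 of them was called lower. SRC, the partner kinase of PTK2, gave 54.0, 38.0 and 44.9 with miR-376a*G and 66.4, 44.9 and 29.6 with control, which overlap. It differed by 0.02 (adjusted p = 0.968).

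Among adaptors and docking proteins 3 of 7 tested genes were lower with miR-376a*G, against 15.4% of all tested genes. CAV1 encodes caveolin-1, the coat protein of caveolae, which also sits at adhesions and is phosphorylated by SRC. Its signal was 859, 888 and 810 with miR-376a*G, 2853, 2396 and 2580 with control and 2431, 3092 and 3057 with miR-376a*A. The miR-376a*G arrays stood in a tight group far below the rest. CAV1 differed by -1.61 from control (SE 0.11, adjusted p = 1.8e-05), a 3.05-fold fall, and by -1.54 without the 2 arrays that stood apart.

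BCAR1 encodes p130Cas, a substrate of SRC and focal adhesion kinase that is stretched under tension. It gave 59.1, 70.4 and 60.0 with miR-376a*G, 117, 93.2 and 101 with control and 107, 115 and 117 with miR-376a*A. All miR-376a*G arrays were lower than all others, and BCAR1 differed from control by -0.71 (SE 0.14, adjusted p = 0.0044). The call was lost under scaling to the hybridisation controls (-0.31, adjusted p = 0.112) and with the mean of both probe sets (-0.54, adjusted p = 0.137).

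CRKL, an adaptor that binds phosphorylated p130Cas and paxillin, gave 422, 442 and 459 with miR-376a*G, 638, 556 and 557 with control and 576, 648 and 703 with miR-376a*A. The miR-376a*G arrays were below all others, while the other groups overlapped. Yet the difference from control of -0.40 (SE 0.11, adjusted p = 0.0193) was the smallest of the 11 called, and it was -0.00 under scaling to the hybridisation controls. That call was also lost with the mean of both probe sets (-0.23, adjusted p = 0.220), without miR-376a*G replicate 1 or 2 and without control replicate 1 (adjusted p = 0.0503 to 0.0758).

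PXN encodes paxillin, the docking protein most often used to stain adhesions. Its signals of 338, 336 and 438 with miR-376a*G lay around those of 388, 405 and 393 with control, and the difference was -0.10 (SE 0.14, adjusted p = 0.610). NEDD9, a relative of p130Cas, gave 33.5, 16.3 and 38.2 against 28.8, 16.5 and 13.9, and differed by 0.53 (SE 0.36, adjusted p = 0.290). It is dim, being above the array median on 3 of 9 arrays, the fewest that allow a test. GIT2, which binds paxillin, gave 378, 332 and 366 with miR-376a*G and 429, 445 and 444 with control. Its groups did not overlap and the difference was -0.29 (SE 0.11, adjusted p = 0.0670), called without the 2 arrays (-0.31, adjusted p = 0.0229) and turned to 0.11 under scaling to the hybridisation controls. Its paralog GIT1 gave 70.8, 63.9 and 97.6 against 106, 82.5 and 72.4 and differed by -0.17 (adjusted p = 0.659).

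Of the actin cross-linkers and tensins 2 of 4 tested genes were lower with miR-376a*G, against 15.4% of all tested genes. TNS1 encodes tensin-1, which binds integrin tails and caps actin in the long-lived fibrillar adhesions. Its signal was 34.5, 24.2 and 18.2 with miR-376a*G, 200, 82.2 and 79.0 with control and 62.7, 187 and 179 with miR-376a*A. The miR-376a*G arrays were the lowest, while the array labelled replicate 1 of control was at the level of miR-376a*A replicates 2 and 3, and the array labelled replicate 1 of miR-376a*A was below control replicates 2 and 3. TNS1 differed from control by -2.10 (SE 0.49, adjusted p = 0.0106), or 4.27-fold, and by -1.66 (SE 0.22, adjusted p = 9.2e-05), or 3.16-fold, without those 2 arrays. The mean of its probe sets gave -0.91 (adjusted p = 0.115). The miR-376a*G signals of TNS1 lay near the medians of their arrays (24.6, 21.7 and 23.6), so the size of the fall is uncertain.

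TNS3, another tensin, gave 221, 253 and 231 with miR-376a*G, 425, 348 and 400 with control and 358, 489 and 550 with miR-376a*A. The miR-376a*G arrays were all lowest. The difference from control was -0.73 (SE 0.17, adjusted p = 0.0089), or 1.66-fold, and was not called under scaling to the hybridisation controls (-0.33, adjusted p = 0.0993) or with the mean of both probe sets (-0.26, adjusted p = 0.227).

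The alpha-actinins cross-link actin into bundles. ACTN1 gave 961, 1031 and 971 with miR-376a*G, 1252, 768 and 774 with control and 672, 1297 and 1171 with miR-376a*A. The array labelled replicate 1 of control lay with miR-376a*A replicates 2 and 3, and the array labelled replicate 1 of miR-376a*A lay below control replicates 2 and 3. ACTN1 differed between miR-376a*G and control by 0.12 (SE 0.26, adjusted p = 0.744) with all arrays and by 0.36 (SE 0.08, adjusted p = 0.0025) without the 2. Its paralog ACTN4 gave 775, 856 and 1021 against 1149, 1029 and 797, which overlap, and differed by -0.16 (SE 0.21, adjusted p = 0.592).

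In the zyxin and Ena/VASP families 2 of 6 genes were lower with miR-376a*G, against 15.4% of all tested genes. LPP encodes the lipoma-preferred partner, a zyxin relative that brings Ena/VASP proteins to adhesions. Its signal was 146, 156 and 152 with miR-376a*G, 345, 405 and 438 with control and 402, 386 and 289 with miR-376a*A. The miR-376a*G arrays formed a tight group below all others, and LPP differed from control by -1.37 (SE 0.15, adjusted p = 2.3e-04), or 2.59-fold.

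ENAH encodes MENA, which lengthens actin filaments at their growing ends. It gave 441, 422 and 444 with miR-376a*G, 858, 819 and 837 with control and 840, 837 and 900 with miR-376a*A. All groups were tight, and miR-376a*G differed from control by -0.94 (SE 0.08, adjusted p = 5.4e-05), or 1.92-fold. Its relatives did not pass. VASP gave 121, 127 and 188 against 135, 151 and 96.3 and differed by 0.18 (SE 0.23, adjusted p = 0.561), and EVL gave 49.9, 44.4 and 58.9 against 37.4, 41.9 and 29.7. EVL's miR-376a*G arrays were all above its control arrays, and it differed by 0.48 (SE 0.21, adjusted p = 0.115), called without the 2 arrays (0.51, adjusted p = 0.0479).

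ZYX encodes zyxin, which repairs strained stress fibres. Its signals of 140, 120 and 223 with miR-376a*G overlapped with those of 185, 156 and 88.9 with control, at a difference of 0.18 (SE 0.37, adjusted p = 0.730). TES encodes testin, a LIM protein that binds zyxin and MENA. It gave 136, 143 and 122 with miR-376a*G, 75.8, 151 and 170 with control and 162, 60.5 and 77.3 with miR-376a*A. For TES the array labelled replicate 1 of control was low like miR-376a*A replicates 2 and 3, and the array labelled replicate 1 of miR-376a*A was high like control replicates 2 and 3. The difference of miR-376a*G from control was 0.09 (SE 0.39, adjusted p = 0.877) with all arrays and -0.26 (adjusted p = 0.116) without those 2.

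Of the PDZ-LIM proteins, which bind alpha-actinin, PDLIM5 was lower with miR-376a*G. It gave 293, 274 and 282 with miR-376a*G, 606, 1133 and 1255 with control and 1237, 596 and 710 with miR-376a*A. The miR-376a*G arrays were all lowest, and the arrays labelled replicate 1 of control and of miR-376a*A each lay at the level of the other group. PDLIM5 differed by -1.75 (SE 0.31, adjusted p = 0.0029), or 3.35-fold, and by -2.07 (SE 0.09, adjusted p = 5.5e-08), or 4.20-fold, without those 2 arrays. PDLIM7 gave 50.8, 47.1 and 106 against 77.1, 59.0 and 40.0 and differed by 0.16 (SE 0.38, adjusted p = 0.779).

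Of the 11 genes called lower, CAV1, ENAH, FERMT2, LPP, PDLIM5 and VCL kept their call under every alternative tried in which they were tested. BCAR1, CRKL, TLN2, TNS1 and TNS3 each lost it under at least 1 alternative.

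**Figure D3:**
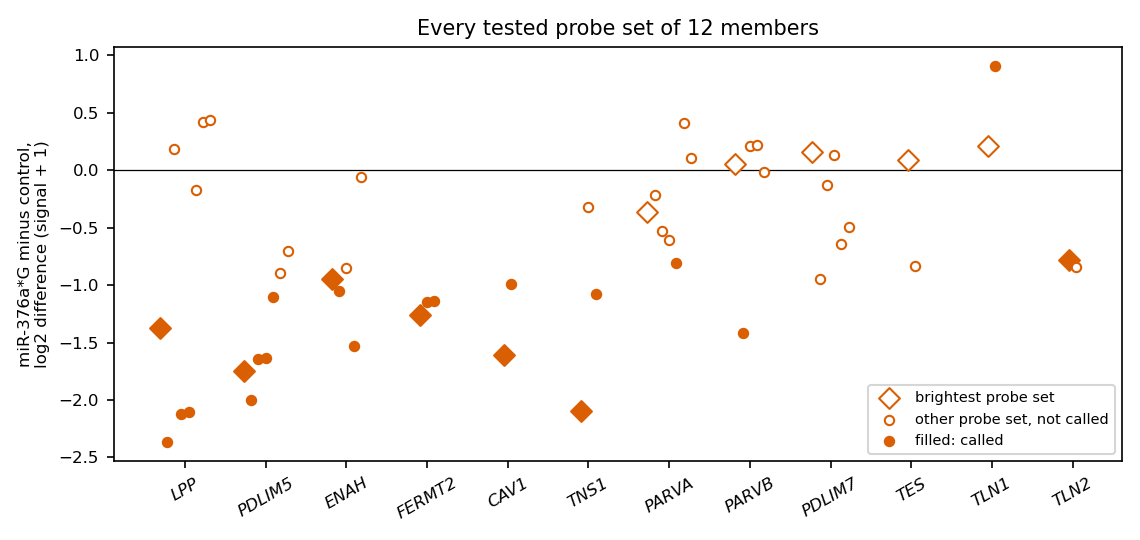
Log2 difference between miR-376a*G and control for every tested probe set of 12 genes, with all 9 arrays. Diamonds are the brightest probe set, by which the gene is represented, circles the others, and filled symbols passed limma's adjusted p under 0.05. PDLIM5, ENAH, FERMT2, CAV1, TNS1 and TLN2 have all symbols below 0, while LPP, PARVA, PARVB, PDLIM7 and TES have symbols on both sides.

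Most of these genes have several probe sets, which can report different transcript ends. The 31 genes had 112 probe sets, of which 84 were tested in a fit of 24310 probe sets. Between miR-376a*G and control 27 were called lower and 1 higher, while 15.6% of all tested probe sets were called lower and 16.6% higher (32.3%). For PDLIM5, 5 of 7 tested probe sets were lower and all 7 were below 0, from -1.997 to -0.70. For LPP, 4 of 8 were lower, at -1.37 to -2.37, and the other 4 lay between -0.18 and 0.44 without a call. ENAH had 3 of 5 called lower (-0.06 to -1.53 over all 5), CAV1 had 2 of 2 (-1.61 and -0.99) and VCL had 1 of 2, its second and dimmer probe set lying at -0.47 (adjusted p = 0.0999).

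Some probe sets differed from the one that represents their gene. The second brightest probe set of PARVB gave 56.9, 60.7 and 61.8 with miR-376a*G and 297, 131 and 108 with control, a difference of -1.42 (SE 0.44, adjusted p = 0.0368), while the brightest probe set of PARVB was at 0.05. Of the 7 PARVA probe sets 1 was called lower (-0.81, adjusted p = 0.0281). The second TES probe set gave 87.3, 77.2 and 79.0 with miR-376a*G and 90.9, 180 and 186 with control, with the array labelled replicate 1 of control near the miR-376a*G level. That TES probe set differed by -0.83 (adjusted p = 0.0944), and by -1.17 (adjusted p = 3.6e-05) without the 2 arrays. The only probe set called higher was the dimmer one of TLN1 (0.91, SE 0.23, adjusted p = 0.0139), at 51.4, 68.7 and 52.2 against 37.3, 26.1 and 27.4.

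The 2 forms of the microRNA were then set against each other. The miR-376a*G arrays enter this comparison and the one above, so the 2 sets of differences are not independent. Of the 30 genes 12 were higher with miR-376a*A than with miR-376a*G and 0 were lower (40%), while 38.2% of all tested genes were called, 16.4% higher and 21.8% lower. The median difference was 0.21 over the list and -0.14 over all genes. Without the arrays labelled replicate 1 of miR-376a*A and of control the 12 were called again, with ACTN1 added among the higher ones and TES as 1 lower gene, against 25.7% higher and 34% lower (59.6%) over all genes. Arrays of the groups did not overlap for 16 of the 30 genes, 14 of them higher with miR-376a*A, against 53.5% of all genes with 21.8% higher and 31.8% lower. Without the 2 arrays this held for 19 genes, 16 of them higher, against 72% of all genes with 30.6% higher and 41.4% lower. Among the 84 probe sets 31 were called higher and 2 lower, against 16.6% and 19.6% (36.1%) of all tested probe sets. The 2 lower ones were 1 of TLN1 and 1 of LPP. Of the 8 tested LPP probe sets 4 were called higher and 1 lower, over a range of -0.81 to 2.23.

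Largest were TNS1, which encodes the actin-capping tensin-1, at 2.32 (SE 0.49, adjusted p = 0.0058), and CAV1 at 1.74 (SE 0.11, adjusted p = 1.3e-05). PDLIM5 differed by 1.51 (adjusted p = 0.0053), VCL by 1.47 (adjusted p = 3.0e-05), FERMT2 by 1.33 (adjusted p = 2.3e-05) and LPP by 1.23 (adjusted p = 3.6e-04). ENAH, TNS3, BCAR1 and CRKL were higher with miR-376a*A by 0.98, 0.96, 0.83 and 0.54. The focal adhesion kinase gene PTK2 was higher by 0.44 (SE 0.13, adjusted p = 0.0230) and the parvin gene PARVA by 0.89 (SE 0.30, adjusted p = 0.0432). TLN2 was not called, at 0.40 (SE 0.24, adjusted p = 0.214). Yet 1 of the 2 tested TLN2 probe sets was called higher, over a range of 0.40 to 1.99. PARVB was at -0.10 without a call by its brightest probe set. Of its 5 tested probe sets 1 was called higher and 0 lower, over a range of -0.24 to 1.87. TNS1 was not called with the mean of its probe sets (0.84, adjusted p = 0.130) and TNS3 was not with the mean of both (0.10, adjusted p = 0.645) or under scaling to the hybridisation controls (0.30, adjusted p = 0.116).

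This comparison depended on how arrays were scaled. Scaling to the hybridisation controls moved the median of all tested genes from -0.14 to -0.81, and the list then had 7 genes higher with miR-376a*A and 12 lower. Over all tested genes 5.38% were called higher and 65.2% lower under that scaling. CAV1, ENAH, FERMT2, LPP, PDLIM5, TNS1 and VCL were the 7 list genes called higher. CRKL and PTK2 turned to -0.13 and -0.23 without a call, and BCAR1 (0.17), PARVA (0.22) and TNS3 (0.30) lost theirs. PARVA also lost its call without any 1 of miR-376a*A replicates 2 and 3, the miR-376a*G replicates and control replicates 2 and 3 (0.66 to 0.97, adjusted p = 0.0504 to 0.149), and PTK2 without miR-376a*A replicate 3 or any 1 of the miR-376a*G replicates (0.31 to 0.45, adjusted p = 0.0591 to 0.0706). Both also lost it with the mean of all probe sets (PARVA 0.40, adjusted p = 0.143, and PTK2 0.19, adjusted p = 0.251). Of the tested probe sets, 3 of 7 were called higher for PARVA (-0.63 to 0.95) and 2 of 3 for PTK2 (-0.22 to 0.50). Without the 2 arrays that stood apart these were 5 and 2, and 1 probe set of each gene was called lower. Over all alternatives, leaving out the reported setting, PARVA was called in 10 of 22 and PTK2 in 15 of 22.

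The unedited form was set against control to see what it changes. With the arrays as labelled 0 of the 30 genes were called by limma, 0 had an unadjusted p under 0.05, and over all tested genes 0 (0%) were called and 463 had an unadjusted p under 0.05. The median difference was -0.01 over the list and -0.02 over all genes, and 29 of the 30 genes differed by less than 0.5 in either direction. PARVA had the largest difference at 0.53 (SE 0.30, adjusted p = 0.886). The talin gene TLN2 was the only one whose arrays did not overlap, at -0.38 (SE 0.24, adjusted p = 0.886), while 6.15% of all genes showed no overlap, 2.57% higher and 3.58% lower. The other tested probe set of TLN2 lay on the opposite side of 0, at 1.15 without a call. Without the arrays labelled replicate 1 of miR-376a*A and of control, 1 of the 2 TLN2 probe sets was called higher and 0 lower.

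Without the arrays labelled replicate 1 of miR-376a*A and of control, 11 of the 30 genes were called, 8 higher and 3 lower with miR-376a*A (36.7%). Over all tested genes 41.9% were called in that fit, 19% higher and 22.9% lower. This leaves 2 arrays in either group and 4 residual degrees of freedom. The genes called higher were ACTN1, CAV1, CRKL, LIMS2, PARVA, PARVB, TNS1 and TNS3, and those called lower were PDLIM5, TES and VCL. The median difference was 0.16 over the list and 0.00 over all genes. Arrays of the groups did not overlap for 17 of the 30, 12 higher and 5 lower, against 69.5% of all genes with 34.3% higher and 35.2% lower. Leaving out either of the arrays alone gave 0 called genes.

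**Figure D4:**
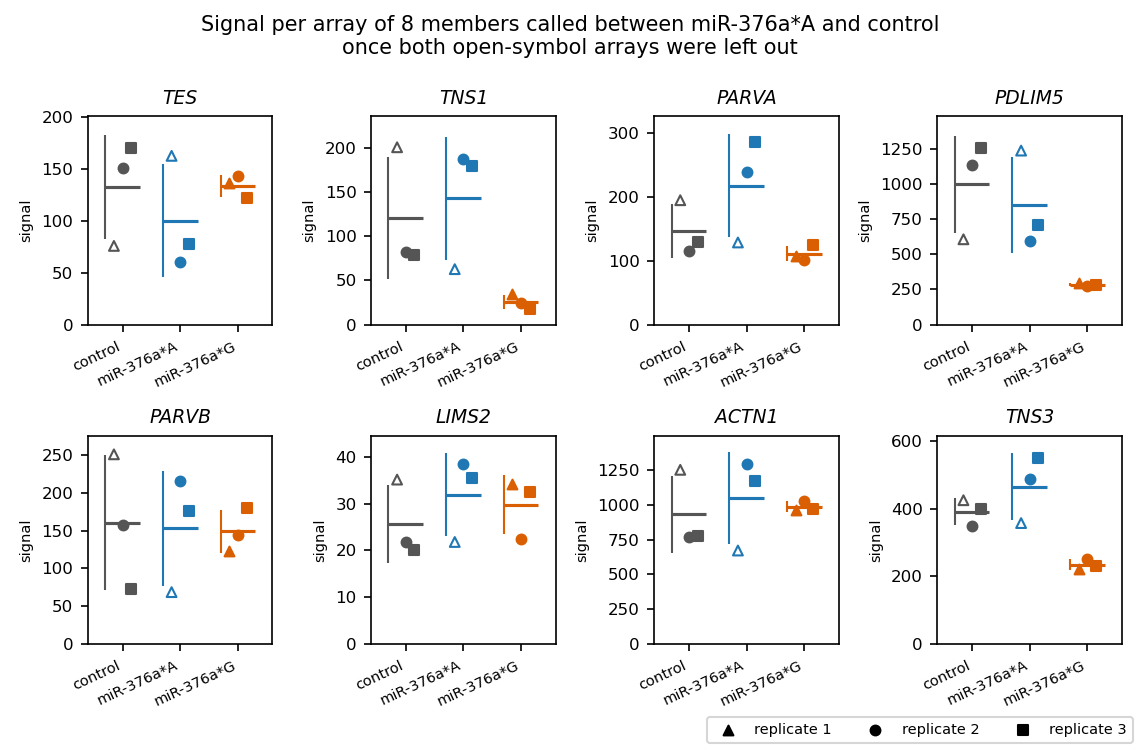
Signal on each array (linear scale from 0) of the 8 genes with the largest differences among the 11 called between miR-376a*A and control without the arrays labelled replicate 1 of miR-376a*A and of control, which are drawn as open symbols. Horizontal lines are means and vertical lines 1 SD over all 3 arrays of a group. In the panels of TES, PARVA, PDLIM5 and ACTN1 the open blue symbol lies near the filled grey ones and the open grey symbol nearer to the filled blue ones, for example at 672 and 1252 for ACTN1.

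Of the ILK, PINCH and parvin genes, 3 of 5 were higher with miR-376a*A on the remaining arrays and 0 were lower. Over all tested genes 19% were higher and 22.9% lower in the same fit. PARVA signals were 238 and 285 with miR-376a*A, against 115 and 129 with control. It differed by 1.09 (SE 0.14, limma adjusted p = 1.1e-04), or 2.13-fold. Of the 7 tested PARVA probe sets 3 were called higher on the same arrays and 0 lower. PARVB was at 216 and 176 against 157 and 72.8, and differed by 0.86 (SE 0.29, adjusted p = 0.0377), where all 9 arrays had given -0.05. LIMS2, at 38.5 and 35.5 against 21.8 and 20, differed by 0.79 (SE 0.25, adjusted p = 0.0281).

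Among cross-linkers and tensins TNS1 differed by 1.17 (SE 0.24, adjusted p = 0.0027), or 2.25-fold, with 187 and 179 against 82.2 and 79.0. ACTN1 differed by 0.68 (SE 0.08, adjusted p = 1.0e-04), with 1297 and 1171 against 768 and 774. In both genes the 2 arrays of a group lay close to each other and far from the other group. TNS3 (0.47, adjusted p = 0.0052), CAV1 (0.31, adjusted p = 0.0125) and CRKL (0.28, adjusted p = 0.0227) were higher by less.

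Of the genes called lower, TES, encoding testin, differed by -1.22 (SE 0.15, adjusted p = 8.7e-05), or 2.33-fold, with 60.5 and 77.3 against 151 and 170. PDLIM5 differed by -0.87 (SE 0.10, adjusted p = 6.7e-05), with 596 and 710 against 1133 and 1255. VCL differed by -0.26 (SE 0.09, adjusted p = 0.0302), with 1328 and 1408 against 1554 and 1731. Both tested TES probe sets and 5 of 7 tested PDLIM5 probe sets were called lower in the same arrays, and 1 PDLIM5 probe set was called higher.

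On the same 7 arrays the differences of miR-376a*G from control can be read beside these, both being set against control replicates 2 and 3. VCL was at -1.65 with miR-376a*G and -0.26 with miR-376a*A, and PDLIM5 at -2.07 and -0.87. CAV1 was at -1.54 and 0.31, TNS1 at -1.66 and 1.17, TNS3 at -0.67 and 0.47, and CRKL at -0.33 and 0.28, which are called differences of opposite sign. Between the forms themselves the differences, miR-376a*A minus miR-376a*G, were 1.39 for VCL, 1.20 for PDLIM5, 1.85 for CAV1, 2.83 for TNS1, 1.14 for TNS3 and 0.61 for CRKL (adjusted p = 1.5e-08 to 4.9e-05). ACTN1 was higher than control with both forms (0.36 and 0.68), and TES was lower than control with miR-376a*A while with miR-376a*G it was at -0.26 without a call.

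Short stretches before the start sites are shown for VCL, LPP and TES because VCL and LPP were called lower with miR-376a*G, TES was called lower with miR-376a*A without the 2 arrays, and all 3 windows hold motifs of factors tied to adhesion and actin genes. The motifs searched, on both strands, were the CArG box bound by SRF, the motif GGAATG bound by TEAD factors and the motif TGANTCA bound by AP-1. Windows were the 250 bases before each start in RefSeq (GRCh38.p14), which listed 61 windows for 27 of the 30 tested genes and 35116 windows over all genes. Which start U87 cells use was not measured, and a match is a run of letters, not a bound site. The VCL window is chr10:73997866-73998115 (plus strand), the LPP window chr3:188212462-188212711 (plus strand, the fourth of 7 listed) and the TES window chr7:116222703-116222952 (plus strand, the second of 2 listed). Capitals mark the matches, written in the direction of the gene, with CATTCC as the reverse of GGAATG.
VCL: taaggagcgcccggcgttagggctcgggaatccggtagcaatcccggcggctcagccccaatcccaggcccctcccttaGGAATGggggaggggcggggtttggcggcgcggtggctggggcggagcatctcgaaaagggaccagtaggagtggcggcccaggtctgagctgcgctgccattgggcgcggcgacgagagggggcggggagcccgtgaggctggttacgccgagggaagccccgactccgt
LPP: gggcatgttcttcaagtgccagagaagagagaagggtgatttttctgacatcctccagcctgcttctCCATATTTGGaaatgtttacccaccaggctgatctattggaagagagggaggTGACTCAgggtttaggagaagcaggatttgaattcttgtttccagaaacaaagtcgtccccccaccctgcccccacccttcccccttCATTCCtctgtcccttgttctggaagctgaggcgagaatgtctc
TES: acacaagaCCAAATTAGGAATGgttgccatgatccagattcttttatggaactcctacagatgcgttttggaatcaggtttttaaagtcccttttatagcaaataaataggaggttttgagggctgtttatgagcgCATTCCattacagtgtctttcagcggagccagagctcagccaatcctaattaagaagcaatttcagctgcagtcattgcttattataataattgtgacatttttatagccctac

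In VCL the single match, GGAATG, lies 171 to 166 bases before the start. LPP holds a CArG box 183 to 174 bases, an AP-1 motif 131 to 125 bases and a TEAD motif 44 to 39 bases before its start. TES holds a CArG box 242 to 233 bases before its start that overlaps with a TEAD motif at 234 to 229, and a second TEAD motif at 114 to 109. Over the 61 windows of the list, a CArG box was found in 3 (4.92%, against 1.16% of all windows), in ACTN1, LPP and TES. The TEAD motif was found in 8 (13.1%, against 11.9%) and the AP-1 motif in 7 (11.5%, against 6.57%). Of the 11 genes called lower with miR-376a*G, 1 had a CArG box, 3 a TEAD motif and 2 an AP-1 motif, and of the 16 with windows that were not called, 2, 3 and 3. Windows of 1 gene can overlap each other, and no test was made.

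Other genes of adhesion and the cytoskeleton were counted from lists in the same fit of miR-376a*G against control, naming the 3 with the smallest p in each. Of 13 tested integrin subunits 8 were lower and 0 higher, with a median of -0.96, against 15.4% lower and 18% higher over all genes. ITGB3, the beta-3 subunit of the vitronectin receptor, differed by -3.29 (SE 0.13, adjusted p = 1.7e-06), ITGB5 by -0.96 (adjusted p = 3.4e-04) and the collagen receptor subunit ITGA1 by -1.09 (adjusted p = 0.0016). The median stayed below 0 under all 3 other scalings. Under the hybridisation controls it was -0.56, with 5 subunits lower and 0 higher. Over all genes 7.52% were lower and 44.4% higher under that scaling.

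Of 19 further focal adhesion components 8 were lower and 4 higher (median -0.24, which turned to 0.24 without the 2 arrays and to 0.16 under scaling to the hybridisation controls, where 2 were lower and 6 higher). The actin-bundling gene PALLD differed by -0.76 (adjusted p = 5.1e-04), KANK2, which links talin to cortical microtubules, by -0.73 (adjusted p = 0.0015), and FERMT3, the kindlin of blood cells, by 1.08 (SE 0.17, adjusted p = 0.0012). FERMT2 and FERMT3, paralogs, thus passed in opposite directions, at -1.26 and 1.08.

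Of 11 tested actin, myosin and SRF-responsive genes 3 were lower and 0 higher (median -0.27, or 0.13 under the hybridisation controls, where 1 was lower and 1 higher), namely CALD1 (-0.69), MYL9 (-1.03) and TPM4 (-0.37, whose arrays overlapped). Among 10 YAP/TAZ-responsive genes 4 were higher and 4 lower (median -0.19, or 0.21 under the hybridisation controls). DLC1, a gene for a tensin-binding protein of focal adhesions, was at 0.81, the matricellular gene CCN1 at 1.21 and CRIM1 at 0.52.

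**Figure D5:**
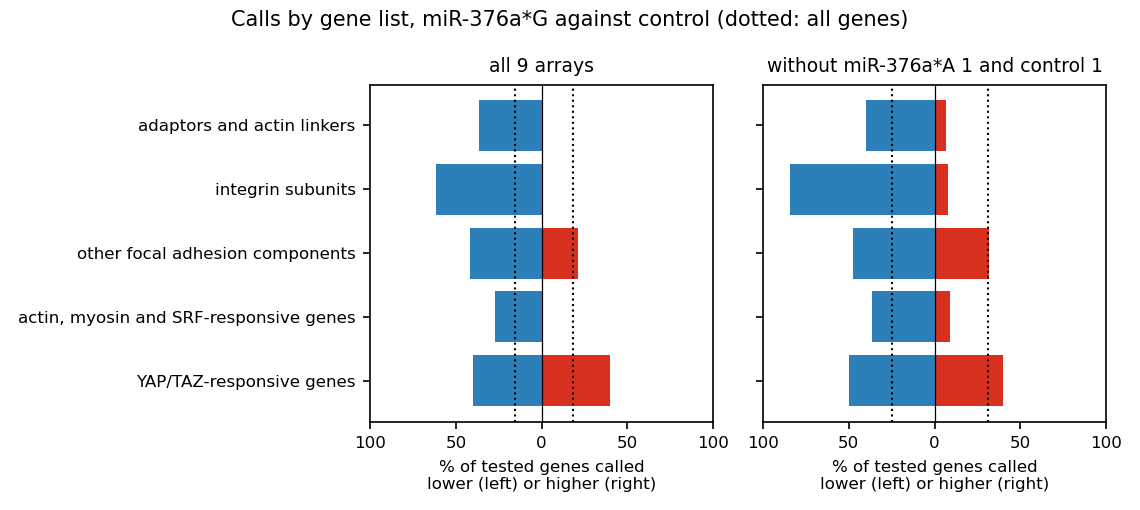
Share of tested genes in each of the lists shown that were called lower (left, blue) or higher (right, red) with miR-376a*G than with control, by limma adjusted p under 0.05, with all 9 arrays and without the arrays labelled replicate 1 of miR-376a*A and of control. Dotted lines mark the shares over all tested genes (15.4% lower and 18% higher on the left panel, 25% and 31.2% on the right). The 30 adaptors and actin linkers have 11 lower and 0 higher with all arrays, and 12 and 2 without those arrays.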

How the data were processed

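The authors deposited 1 linear intensity (signal) per probe set and array, and the submitters' processing notes name GCOS 1.4.0.036. How probes were summarised is not given in the sources used here. All deposited intensities were already scaled, which removes a change in total messenger RNA. Per the labels' protocols, RNA was isolated with Trizol and carried a biotin-ULS label. Of 54675 probe sets, 41091 had 1 gene symbol in the platform's probe table, 1801 had several and the rest had none. Each gene took its brightest probe set. Genes above the array median on at least 3 arrays were tested as log2(signal + 1), so changes of dim genes are understated. limma 3.58.1 (R 4.3.3; lmFit, then eBayes with an intensity trend) was fitted to all 9 arrays in 3 groups with 6 residual degrees of freedom. P-values are two-sided and adjusted by Benjamini-Hochberg over all genes tested. The steps were tested on simulated data. The list's members, the other lists, the doubted arrays and the tests were chosen with earlier results of these data known. Every member was named, and of other lists the 3 genes with the smallest p. 1 further list is not reported here. Alternatives changed the pseudocount, scaling, filter, probe sets, trend, weights, block and arrays used. The number of arrays limits the precision. Protein sequences of paralogs were not compared.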

Additional observations from a re-analysis of the deposited data

How the results depend on the processing

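The results moved with the treatment of the arrays labelled replicate 1 of miR-376a*A and of control and with the scaling. Between miR-376a*A and control the count of list genes went from 0 to 10 with array weights and to 11 without both arrays, and that of all genes from 0 to 5513 and 5269. PARVB turned from -0.05 to 0.86 without them. The weights of the 2 arrays were 0.154 and 0.165, so both alternatives rest on nearly the same arrays. Between miR-376a*G and control 11 list genes became 7 with the mean of all probe sets (26 tested) and 18 with array weights, and 4205 genes became 6538 with scaling to the hybridisation controls, 7866 with weights and 7067 without both arrays. Between the 2 forms 12 list genes became 19 with scaling to the hybridisation controls, and 4804 genes became 8882, 7866 with weights and 7508 without both arrays. That scaling turned ACTN1 to -0.64, CRKL to -0.13, GIT2 to -0.42, PTK2 to -0.23 and PXN to -0.59. Over all genes the split between the forms was 2065 higher and 2739 lower, 2965 and 1262 with arrays centred on their medians, and 677 and 8205 with that scaling, which gave 5592 and 946 between miR-376a*G and control. Leaving out 1 array at a time gave 0 list genes between miR-376a*A and control, 9 to 12 between miR-376a*G and control and 10 to 13 between the forms. Deviations of same-numbered arrays from their group means correlated at -0.880 to 0.046. Both arrays that stood apart carry the number 1 and deviated in opposite directions. These correlations therefore cannot show whether the replicate numbers pair the arrays. With the replicate block 0, 9 and 10 list genes and 0, 2936 and 3453 genes were called in the order above, and CRKL and TLN2 lost their calls against control (adjusted p = 0.0662 and 0.0797), as did PARVA and PTK2 between the forms (adjusted p = 0.0904 and 0.0519). Causes were not tested. All other alternatives kept the counts over the 30 genes and over all genes within 1.5 times.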

Other observations

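Integrin subunits, to which the adaptors couple, can be read for miR-376a*A as well. With all 9 arrays limma called 0 of 13 tested subunits against control, at a median of 0.23, and 0 of all genes. Without the arrays labelled replicate 1 of miR-376a*A and of control, 9 were called higher and 0 lower, at a median of 0.42. Over all genes 19% were then called higher and 22.9% lower, at a median of 0.00. With miR-376a*A set against miR-376a*G, 11 of 13 were higher and 0 lower with all arrays, at a median of 1.16 against -0.14 over all tested genes, of which 16.4% were higher and 21.8% lower. Under scaling to the hybridisation controls 4 were higher and 1 lower, at a median of 0.49 against -0.81. Over all genes 5.38% were higher and 65.2% lower under that scaling. Of 11 actin, myosin and SRF-responsive genes 5 were higher and 2 lower than control with miR-376a*A without those arrays, against 19% higher and 22.9% lower over all genes. These counts come from lists chosen with earlier results of these data known.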
